A study of Mus musculus with 8 samples.

Results

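Capillary endothelial cells line the narrowest vessels of the brain. Here they were the 18487 cells, of 28236 endothelial cells and 50254 cells kept, that passed a rule on measured counts in suspensions of mouse cortex read by single-cell RNA sequencing. Cells were selected on their UMIs (unique molecular identifiers, each standing for 1 captured transcript). A cell had to show 500 genes or more, and fewer than 15% of its UMIs could be mitochondrial. It counted as endothelial with at least 20 UMIs per 10000 for Cldn5, Flt1 and Pecam1 summed, under 20 for the mural genes Acta2, Tagln, Vtn and Rgs5, and under 20 for the microglial genes C1qa, C1qb and Ctss. It counted as capillary with fewer than 2 of the arteriolar genes Gkn3, Sema3g, Stmn2, Vegfc, Bmx and Egfl8 detected, fewer than 3 of the large-artery genes Mgp, Fbln5, Fbln2, Cytl1, Eln and Pi16, and fewer than 3 of the venous genes Vwf, Lcn2, Lrg1, Slc38a5, Tmem252, Vcam1 and Ackr1. The members were thus chosen by the levels of these genes, which are given below only as a description. Endothelial cells that met too many arteriolar or large-artery genes (6286 cells) or too many venous genes (3463 cells) are called arterial and venous.

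The study set 2 mutants in laminin alpha chains, each beside wild-type (WT) mice of its own. Lama4-/- mice lack the laminin alpha 4 chain in every cell. Tek-Cre:Lama5-/- mice lose the laminin alpha 5 chain where the Tek promoter drives Cre recombinase, which is in the endothelial lineage and also in much of the blood lineage. All mice were 8 weeks old and were perfused with cold buffer, and the cortices of 3 mice were pooled for each group. The libraries of a group therefore share mice, so that each test below compares pools and measures the spread between libraries of 1 pool. The 2 deposited Lama4-/- matrices were identical and were counted as 1 library, which left 7 libraries and no test for Lama4-/-.

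Brain capillary endothelium forms the blood-brain barrier: tight junctions seal the cells to each other, vesicle transport is held low, and carriers move glucose, amino acids, lactate, iron and hormones. Wnt ligands acting on the receptor Fzd4 and its partners keep up this program. The cells stand on a basement membrane of laminins, type IV collagens, nidogens and heparan sulfate proteoglycans, in which laminins holding the alpha 4 or alpha 5 chain are the endothelial forms and integrins and dystroglycan are receptors.

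The capillary cells numbered 1260 and 1200 in the WT libraries of the Lama4 experiment, 1424 in Lama4-/-, 3690 and 3736 in the Lama5 experiment's WT, and 3527 and 3650 in Tek-Cre:Lama5-/-. Their summed counts ran from 6259729 to 12840590 UMIs per library. Their median UMIs per cell fell in the order of 4939 and 4712, 4114, 3019 and 2851, and 2521 and 2346 for these groups, so each mutant was shallower than its own WT. Levels are CPM, counts scaled to a library total of 1000000, from the summed capillary counts, over totals scaled by trimmed mean of M values (TMM) for the Lama5 experiment and over plain totals elsewhere. No 2 libraries shared more than 5 capillary barcodes. The ribosomal RNA transcript Gm42418 stood at 38165 and 37547 CPM in the WT and 74792 and 81745 CPM in Tek-Cre:Lama5-/- capillary cells. Its part in the differences below was not tested. A fit without it, AY036118 and the mitochondrial genes called 1272 genes, against 1283 with them. That fit left the counts of all other genes as they were, so it cannot measure this part.

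Cells of the rule carried the capillary and barrier markers, which venous and arterial cells carried in part as well. With each cell thinned to 2000 UMIs, Cldn5, a tight junction claudin, was detected in 99.2% to 99.8% of capillary cells over the 7 libraries. Car4, a carbonic anhydrase of capillary and venous endothelium, was detected in 57.5% to 76.6%, and Mfsd2a, a lipid carrier that holds back vesicle transport, in 34.9% to 53.4%. Spock2, a proteoglycan, was detected in 93.1% to 97.3% and Slco1a4, an organic anion carrier, in 91.4% to 97.0%. At least 2 of the last 4 were detected in 93.6% to 98.4% of capillary cells. Without thinning, the ranges were 62.0% to 85.1% for Car4 and 42% to 73.4% for Mfsd2a. Mfsd2a was detected less in arterial cells, at 24.8% to 35.5%, and in venous cells, at 22.5% to 39.3%. Car4 set capillary cells apart from arterial cells, where 6.97% to 16.9% had a UMI, but not from venous cells, at 69.3% to 79.2%. Spock2 was detected in 88.8% to 94.0% of venous and 82.6% to 86.3% of arterial cells. For Slco1a4 these ranges were 92.2% to 97.6% and 80.2% to 85.9%. At least 2 of Car4, Mfsd2a, Spock2 and Slco1a4 were detected in 93.7% to 96.4% of venous and 74.6% to 81.2% of arterial cells. The venous range lay within the capillary range. In microglia, which should lack these genes, Car4, Mfsd2a, Spock2 and Slco1a4 were each detected in 3.04% of thinned cells or fewer. In mural cells Car4 was detected in 29.3% to 36.9%, more than in arterial cells, and Mfsd2a, Spock2 and Slco1a4 each in 5.23% or fewer. The levels are a description, since the rule chose the cells.

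**Figure D1:**
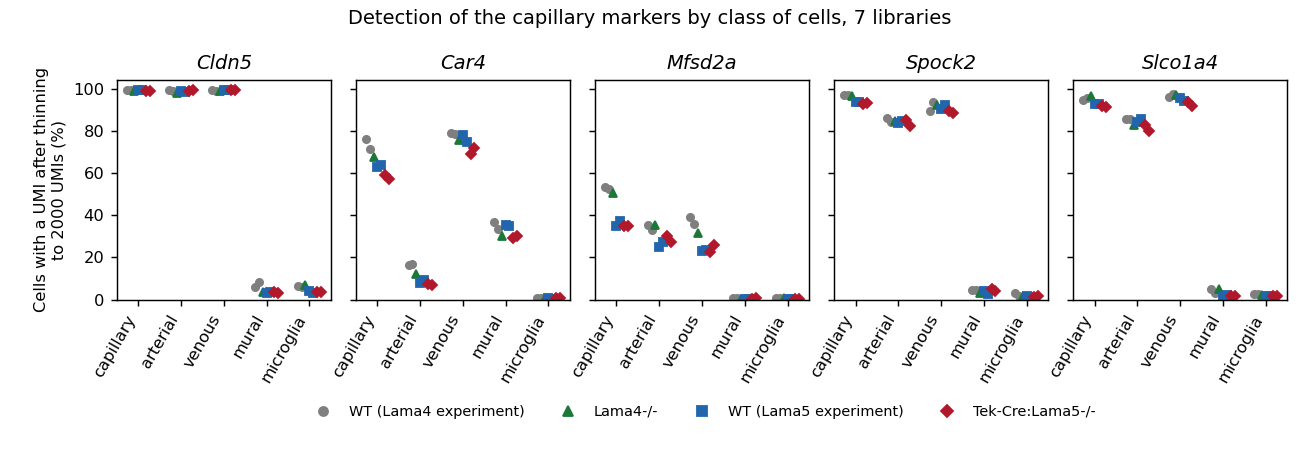
Percent of cells with at least 1 UMI of each marker after thinning every cell to 2000 UMIs (vertical axis), by class of cells, with 1 point for each of the 7 libraries. Capillary cells hold Car4 in 57.5% to 76.6% of cells and arterial cells in 6.97% to 16.9%, while the venous range of 69.3% to 79.2% overlaps the capillary range.

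The rule admits cells from both sides of the capillary bed. No gene of the 3 zone lists was detected in 21.8% of capillary cells, from 10.5% to 30.2% by library and highest in the shallow Tek-Cre:Lama5-/- libraries. Exactly 2 venous genes were detected in 25.9% and 1 arteriolar gene in 21.0%. The venous genes detected most often in thinned cells were Tmem252, in 40.3% to 47.9%, and Slc38a5, in 16.0% to 25.3%. At the limit of the rule, the 4780 capillary cells with 2 venous genes had a UMI of Car4 in 85.8% of cells, and the 1908 cells with 3, which the rule leaves out, in 94.1%. The 3889 cells with 1 arteriolar gene had Car4 in 53.4%, and the 1568 cells with 2, left out, in 27.5%. The endothelial limit touched few cells: 55 capillary cells had a summed endothelial level of 20 to 25 and 32 further cells had 15 to 20, while 64.7% of capillary cells reached 100.

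Genes the rule did not use were graded across the capillary cells. The rule was redrawn on cells thinned to 2000 UMIs, which gave 18239 capillary cells. Of these, the 1392 cells with 1 arteriolar and no venous gene, the 4906 with no zone gene, the 6265 with only 1 venous gene and the 2773 with only 2 were summed per library. Alpl, the tissue-nonspecific alkaline phosphatase, had medians of 209, 62.8, 52.5 and 28.0 CPM over the 7 libraries in that order. Efnb2, an arterial ephrin ligand, had medians of 127, 66.6, 55.6 and 31.5 CPM. Hey1, a Notch target of arterial cells, had 129, 63.0, 54.3 and 32.1 CPM. For each of these genes the ranges over libraries in the first and the last kind of cell did not overlap. Nr2f2, a venous transcription factor, ran the other way with 13.9, 30.4, 49.2 and 87.4 CPM. Icam1, a leukocyte adhesion molecule, had 39.2, 77.7, 110 and 202 CPM, with wide ranges that overlapped. Car4 had medians of 258, 728, 800 and 945 CPM and Slc16a1, the lactate and ketone carrier, 229, 478, 542 and 634 CPM, so both were lowest in cells with an arteriolar gene. Rgcc, Mfsd2a, Spock2 and Slc2a1 were about flat across the 4 kinds of cells. These are descriptions without a test, since the kinds were cut from the same cells' counts.

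**Figure D2:**
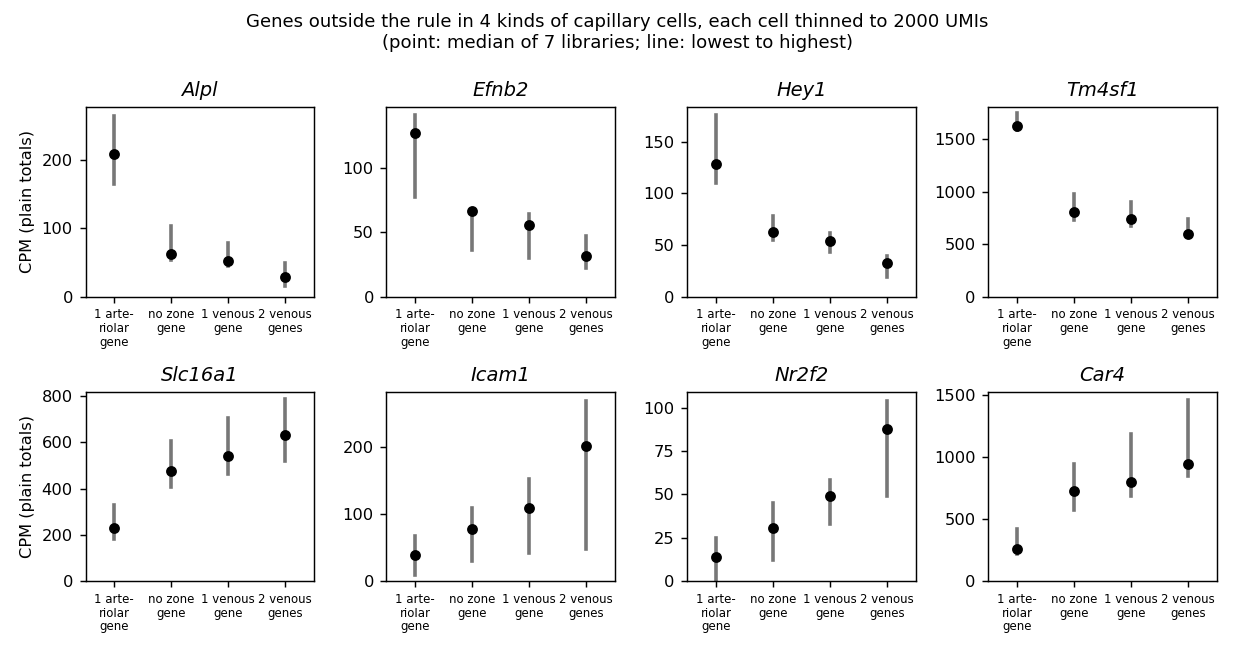
Level in CPM (vertical axes, from 0, plain totals of thinned counts) of 8 genes outside the rule in capillary cells with 1 arteriolar gene, no zone gene, 1 venous gene or 2 venous genes; points are medians of 7 libraries and lines run from the lowest to the highest library. Alpl has medians of 209 and 28.0 CPM at the ends, and Nr2f2 13.9 and 87.4 CPM.

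Set beside arterial and venous cells, capillary cells were highest in all 7 libraries for 285 of 3701 genes at 50 CPM or more in any zone, and lowest for 347. Cxcl12, a chemokine, had a median of 2132 CPM in capillary, 1286 in arterial and 479 in venous cells. Ivns1abp, an actin-binding protein, had 201, 68.6 and 63.7 CPM. Stra6, the cell surface receptor for retinol bound to its carrier, had 68.6, 39.4 and 27.9 CPM. Slc1a1, a glutamate carrier, had 259, 96.9 and 141 CPM. Mfsd2a had 242, 188 and 152 CPM. Ptgds was also highest, but it ranged from 53.2 to 597 CPM between capillary libraries and is on the oligodendrocyte marker list. Among the lowest were Ptgs2, the inducible cyclooxygenase, at 3.29 CPM against 72.8 in arterial and 98.7 in venous cells. With zones drawn on thinned cells its medians were 13.1, 24.7 and 264 CPM, so the gap to arterial cells was narrower. The caveola genes were also among the lowest, Cav1 at 232 CPM against 359 and 322 and Cavin1 at 291 against 394 and 398. The glucose carrier Slc2a1 was abundant everywhere and lowest in capillary cells, at 2882 CPM against 3571 and 3455. By the medians of thinned cells, 256 of the 285 were still highest and 308 of the 347 lowest. The zones were drawn from the same counts, so these orders carry no test.

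The targeted genes were read first as a check of the labels. Lama4, on chromosome 10 from 38965515 to 39110188 on the plus strand (mm10, 1-based, GENCODE M21), had 301 and 289 UMIs in the WT capillary libraries of its experiment and 1 UMI in Lama4-/-, a level of 0.338% of WT (exact 95% interval 0.00854% to 1.89%, counting error only). Lama5, on chromosome 2 from 180176373 to 180225859 on the minus strand, stood at 34.3 and 35.1 CPM in the WT and 20.4 and 21.3 CPM in Tek-Cre:Lama5-/- capillary cells, or 56.8% of WT by counts (50.5% to 63.9%). The labels used here do not give the deleted exons, and reads at the transcript's end may lie outside them, so this level does not measure how many cells had lost the protein. The other chain was higher in each mutant. Lama4 stood at 28.4 and 29.4 CPM in WT and 45.2 and 45.9 CPM in Tek-Cre:Lama5-/- cells, with a log2 fold change of 0.66 (standard error, SE, 0.066). That rise had an adjusted p of 3.05e-05 by edgeR's quasi-likelihood test with Benjamini-Hochberg adjustment, the test used for every adjusted p below. Lama5 stood at 53.9 and 60.7 CPM in the WT of the Lama4 experiment and 72.3 CPM in Lama4-/-, which is 126.6% of WT by counts (112.6% to 142.1%) with no replicate check. Its log2 ratios to the 2 WT libraries were 0.42 and 0.25, under the 0.5 used for Lama4-/- below, and the ratio between those libraries was 0.17.

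In Tek-Cre:Lama5-/- capillary cells, 1283 of 12761 genes tested differed from WT at an adjusted p under 0.05, a background of 10.1%. Of these, 717 (5.62%) were higher and 566 (4.44%) lower, and 77 (0.603%) changed at least 2-fold. Calls were more frequent among abundant genes: 1037 of 6013 genes at 20 CPM or more (17.2%, with 9.38% higher and 7.87% lower) and 356 of 735 at 200 CPM or more (48.4%, with 30.5% higher and 18.0% lower). The shares at 20 CPM or more hold the genes at 200 CPM or more as well, so below they are high for list members between these levels. The median log2 fold change of all genes tested was -0.0088. At an unadjusted p under 0.05 there were 2928 genes, and DESeq2 called 486. The same test called 904 of 11168 genes (8.09%) in venous cells and 850 of 11681 (7.28%) in arterial cells, which hold fewer cells.

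The largest increases outside the rule included a growth factor binding protein, a retinol receptor and ephrin signalling genes. They were not particular to capillary cells: each named increase had the same sign in separate fits of venous and of arterial cells. There Stra6 had log2 fold changes of 1.04 and 1.06, Epha2 1.04 and 0.54 and Plaur 0.90 and 0.71. Not all were called there, and Igfbp3 was called in venous (0.73) but not in arterial cells (0.17). Igfbp3, which binds insulin-like growth factors (chromosome 11, 7206086 to 7213923, minus strand), stood at 16.3 and 16.4 CPM in WT and 32.8 and 35.98 CPM in Tek-Cre:Lama5-/- (log2 fold change 1.07, SE 0.089, adjusted p 6.05e-06). Both mutant libraries were above both WT libraries, but the Lama4 experiment's WT libraries stood at 36.4 and 7.83 CPM, a spread wider than the change. Without the few cells that had a UMI of Plvap or Esm1, described below, the Igfbp3 change was 0.53 (adjusted p 0.00215). Over 16 other settings, this one among them, it ran from 0.51 to 2.67.

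Stra6 (chromosome 9, 58063788 to 58153996, plus strand) stood at 37.03 and 34.05 CPM in WT and 70.4 and 68.1 CPM in the mutant (log2 fold change 0.96, adjusted p 6.54e-07). The groups did not overlap. For Stra6 the WT of the Lama4 experiment was higher than every library of the Lama5 experiment, at 96.9 and 91.9 CPM.

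Epha2, a receptor for ephrin-A ligands, stood at 37.3 and 37.02 CPM in WT and 72.5 and 60.9 CPM in the mutant (log2 fold change 0.85, adjusted p 1.08e-05). Its ligand gene Efna2 stood at 15.2 and 15.2 CPM in WT and 25.6 and 24.3 CPM in the mutant (0.72, adjusted p 0.000265). Efna2 lay between 0.160 and 1.06 CPM in all libraries of the Lama4 experiment, below each library of the Lama5 experiment. Plaur, the urokinase receptor, stood at 55.8 and 58.4 CPM in WT and 100.3 and 91.2 CPM in the mutant (0.75, adjusted p 2.67e-06), and the chemokine gene Cxcl1 at 24.5 and 22.4 CPM in WT and 45.2 and 37.2 CPM in the mutant (0.81, adjusted p 9.23e-05). Lars2, the mitochondrial leucyl-tRNA synthetase, stood at 855 and 824 CPM in WT and 1499 and 1621 CPM in the mutant (0.89). Lars2 was the most abundant of the 12 named increases, and it moved with the ribosomal RNA transcript Gm42418, which rose by 1.05 on the log2 scale. Whether the values of these genes share a source was not tested. Cks2 (0.74) and Rpl9-ps6 (0.69), with Nr1d1 and Lama4, were also among the 12.

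The decreases named by the same rule were smaller. Each had the same sign in venous and in arterial cells, such as Zbtb16 at -0.43 and -0.51 and 8430408G22Rik at -1.01 and -0.66. Not all were called there, and Tada2b was not called in arterial cells (-0.17). After Lama5 itself, Zbtb16, a zinc finger transcription factor (chromosome 9, 48654297 to 48836222, minus strand), fell from 79.2 and 74.6 to 47.4 and 48.1 CPM (log2 fold change -0.69, adjusted p 4.59e-06). Zbtb16 was also lower in Lama4-/-, at 28.4 CPM against 58.9 and 64.4 in its own WT. Hspa1b, an inducible heat shock protein, fell from 492 and 510.04 to 362 and 348 CPM (-0.50, adjusted p 6.54e-07). Htra1, a secreted serine protease whose loss causes small vessel disease in humans, fell from 113 and 105 to 76.4 and 79.5 CPM (-0.48, adjusted p 4.14e-05). Cpt2, a mitochondrial fatty acid carnitine transferase, fell from 28.8 and 29.3 to 20.4 and 19.2 CPM (-0.55), and Lpin2, a phosphatidate phosphatase, from 53.8 and 57.2 to 38.8 and 39.6 CPM (-0.50). The other members, 1110034G24Rik, Dusp23, 8430408G22Rik, Tada2b, Fam107a and Hpcal1, fell by 0.49 to 0.57 on the log2 scale. In each of the 24 named genes the mutant and WT libraries did not overlap, which the naming rule itself required.

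**Figure D3:**
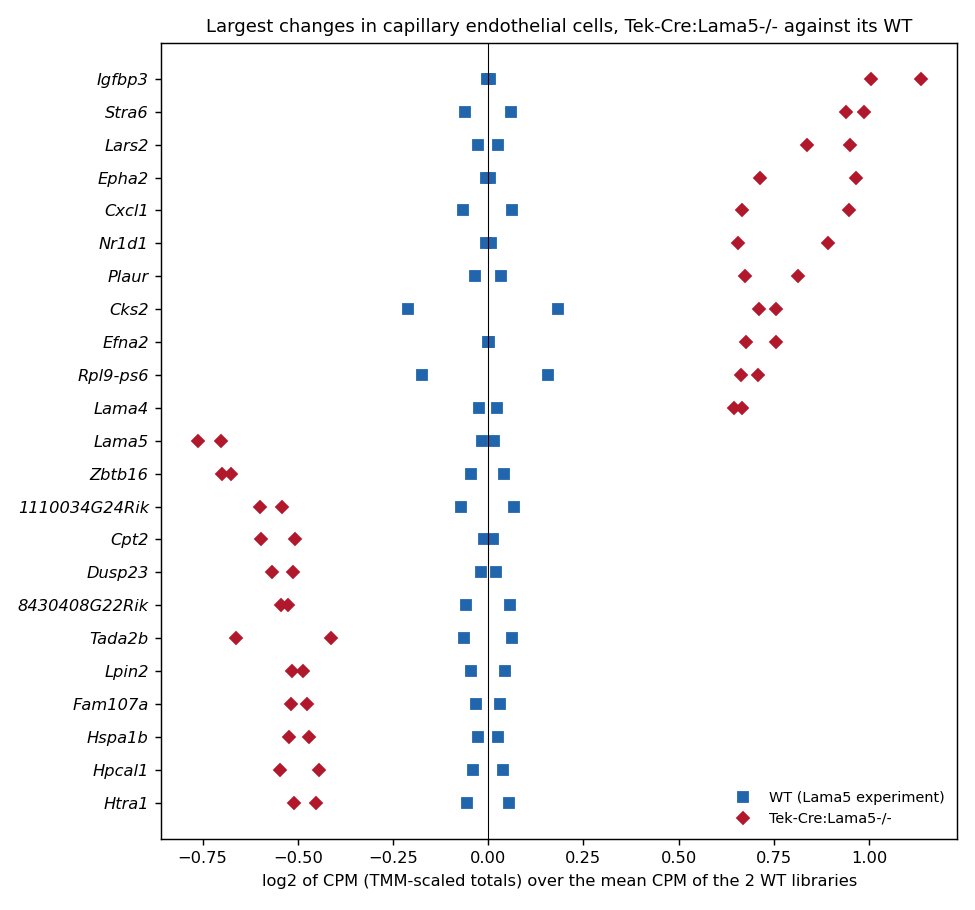
Level of 23 of the 24 named genes in each library of the Lama5 experiment as log2 of CPM over the mean of the 2 WT libraries (horizontal axis); squares are WT and diamonds Tek-Cre:Lama5-/- libraries. Igfbp3 shows the largest increase (1.07) and Lama5 the largest decrease (-0.73), and the WT libraries of Cks2 and Rpl9-ps6 lie furthest apart.

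Nr1d1, a repressor of the circadian clock, rose from 29.5 and 29.8 to 55.1 and 46.8 CPM (log2 fold change 0.78, adjusted p 3.05e-05). Of 16 tested core clock genes, a list drawn up after these values were seen, 7 were higher and none lower. The list median was 0.34, with a background of 5.62% higher. Of the 9 at 20 CPM or more, 5 were higher, beside 9.38% of all genes at that level. Ciart, a clock repressor, rose from 33.8 and 31.6 to 51.7 and 46.9 CPM (0.59, adjusted p 0.000102). Nr1d2 rose from 37.9 and 38.4 to 59.1 and 49.9 CPM (0.52), and the output factors Dbp from 9.52 and 8.28 to 15.1 and 12.8 CPM (0.65) and Tef from 22.7 and 21.2 to 28.7 and 31.1 CPM (0.45). Per2 (1.09, at 4.04 CPM or less) and Bhlhe40 (0.24) were the other calls. The activators Arntl and Clock stood at log2 fold changes of -0.013 and 0.02 and were not called, nor were Per1 (-0.083) and Cry1 (-0.036). In Lama4-/-, which has no test, the 7 called genes went both ways. Their log2 ratios to the WT mean were -0.69 (Nr1d1), -0.52 (Nr1d2), -0.24 (Per2) and -0.077 (Ciart). Tef had 0.043, Bhlhe40 0.07 and Dbp 0.77. The labels used here do not give the hour at which each group was killed, and its part in these values was not tested.

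The clock activators bind the E-box, CACGTG, so the promoters of 3 of these genes are shown as the 250 bases before the start of the gene (RefSeq, GRCm38.p6), written 5′ to 3′ on the gene's strand with each E-box in capitals. Of 19 promoters of 14 clock genes in the table, 6 promoters of 5 genes held an E-box, against 6.02% of all 32851 promoters of this length. Ciart holds 3 (chr3:95882229-95882478, minus strand), this promoter of Tef 1 (chr15:81802423-81802672, plus strand) and Nr1d1 none in this window (chr11:98775378-98775627, minus strand).
Ciart: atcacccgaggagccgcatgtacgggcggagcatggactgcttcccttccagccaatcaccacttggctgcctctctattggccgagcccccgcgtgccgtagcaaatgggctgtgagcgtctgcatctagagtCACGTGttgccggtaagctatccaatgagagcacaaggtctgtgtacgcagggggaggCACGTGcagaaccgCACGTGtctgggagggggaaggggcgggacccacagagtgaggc
Tef: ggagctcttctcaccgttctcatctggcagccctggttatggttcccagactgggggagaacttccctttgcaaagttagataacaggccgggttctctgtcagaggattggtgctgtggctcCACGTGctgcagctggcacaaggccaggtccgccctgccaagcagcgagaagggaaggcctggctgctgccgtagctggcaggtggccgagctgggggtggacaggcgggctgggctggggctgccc
Nr1d1: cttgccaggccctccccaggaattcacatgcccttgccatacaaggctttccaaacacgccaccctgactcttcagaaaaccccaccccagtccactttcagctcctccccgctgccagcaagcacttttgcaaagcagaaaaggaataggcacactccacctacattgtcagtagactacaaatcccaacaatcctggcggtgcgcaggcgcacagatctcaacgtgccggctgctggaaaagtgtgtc
Among the other genes that rose, Dbp and Nr1d2 held none in this window, and among those not called, Cry1, Per1 and Bhlhe41 each held 1. The letters are read from 1 strand because CACGTG is its own reverse complement.

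Genes that mark capillary identity outside the rule leaned lower in Tek-Cre:Lama5-/-. Of 14 tested, 7 were lower and 1 higher, and the list median was -0.091 beside -0.0088 over all genes. The list is of abundant genes, so its 7 of 14 stands beside 18.0% lower among all genes at 200 CPM or more. Slc7a5, the large neutral amino acid carrier, fell from 719 and 729 to 598 and 609 CPM (log2 fold change -0.26, adjusted p 2.03e-05). Rgcc, a cell cycle regulator of brain capillaries, fell from 1463 and 1487 to 1275 and 1248 CPM (-0.23, adjusted p 3.18e-05). Itm2a, a membrane protein of barrier endothelium, fell from 3322 and 3443 to 2985 and 2944 CPM (-0.19, adjusted p 9.23e-05). Car4 fell from 679 and 726 to 652 and 633 CPM (-0.13, adjusted p 0.0191), a call kept in 9 of 16 other settings. Hmcn1 (-0.14), Sgms1 (-0.12) and Ccdc141 (-0.12) were the other 3 that were lower. Each of these changes was under 0.27 on the log2 scale. Tfrc, the transferrin receptor that brings iron across the barrier, was the member that rose, from 335 and 340.3 to 449 and 428 CPM (0.38, adjusted p 5.47e-06). Mfsd2a (0.10, adjusted p 0.0709), Slco1a4 (-0.017) and Spock2 (-0.0097) were not called. In cells with no zone gene, which are fewer, 3 were lower and 1 higher, and the basement membrane count below was likewise 3.

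Junction and transport genes moved little. Of 13 tight and adherens junction genes, 1 was called, the adhesion molecule Esam (-0.093, adjusted p 0.0326), which was lower and kept its call in 7 of 16 other settings. Of the 13, 8 reached 200 CPM, Esam among them, beside 48.4% of all genes called at that level. Another 3 reached 20 CPM, beside 17.2% of all genes called at 20 CPM or more. Cdh5, the endothelial cadherin, stood at 481 and 491 CPM in WT and 494 and 483 CPM in the mutant, and the log2 fold changes of Ocln and Tjp1 were -0.05 and 0.059. Of 16 nutrient transport genes, 5 were lower and Tfrc was higher, a share below the 48.4% called among all genes at 200 CPM or more, a level that 13 of the 16 reached. Among the lower ones were Slc7a5, the glucose carrier Slc2a1 (2747 and 2805 to 2532 and 2519 CPM, -0.14), the thiamine carrier Slc19a3 (-0.19) and the glutamate carrier Slc1a1 (-0.12). Slc1a1 kept its call in 6 of 16 other settings, and the 5 were 3 without the second WT or the first mutant library. Of 10 efflux and organic anion carriers, 2 were higher and 3 lower. Of the 10, 5 reached 200 CPM, and 2 of these were called, beside 48.4% of all genes at that level. Abcb1a, the P-glycoprotein pump, rose from 1288 and 1302 to 1411 and 1391 CPM (0.11), and Abca1, a cholesterol exporter, fell from 75.9 and 74.9 to 58.8 and 58.9 CPM (-0.36). Abcb1b was also higher, at 2.34 CPM or less, and Slco2b1 (-0.15) and Slc22a8 (-0.12) were lower. Without any 1 library, 1 of the carriers was higher rather than 2, and without either mutant library 1 was lower rather than 3. The junction, nutrient and efflux lists had medians of -0.0025, -0.0081 and -0.017.

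Of 14 transcytosis and caveola genes, 3 were higher and 2 lower, with a list median of 0.073. Of the 14, 7 reached 200 CPM, where 48.4% of all genes were called, and 5 more reached 20 CPM, beside 17.2% of all genes at 20 CPM or more. Cav1 (211 and 218 to 239 and 234 CPM, 0.14) and Cavin1 (264 and 270.4 to 299 and 292 CPM, 0.15), which build caveolae, rose, while Cavin2 (-0.17) fell. Fcgrt, the receptor that carries immunoglobulin G, fell from 338 and 342 to 289 and 288 CPM (-0.24, adjusted p 0.000137). The third increase was Plvap, described below, which passed the filter on low counts only through the mutant libraries. Without the second WT library 5 were higher and 3 lower, and with DESeq2 1 was higher.

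Of 14 basement membrane genes tested, 6 were lower, the targeted Lama5 among them, and Lama4 was higher, with a list median of -0.10. Of all 14, 4 reached 200 CPM and 3 of these were lower, beside 18.0% of all genes at that level, and of the 8 others that reached 20 CPM, 3 were lower with Lama5 counted, beside 7.87% of all genes at 20 CPM or more. Sparc, a matrix glycoprotein that binds collagen IV, fell from 1327 and 1336 to 1042 and 1010 CPM (log2 fold change -0.38, SE 0.024, adjusted p 6.78e-07). Agrn, a heparan sulfate proteoglycan that binds laminin, fell from 133 and 133 to 105 and 107 CPM (-0.33, adjusted p 0.000132). The collagen IV chains Col4a1 and Col4a2 fell from 538 and 529 to 466 and 454 CPM (-0.21) and from 286 and 292 to 246 and 241 CPM (-0.25). Lamb2, a laminin beta chain, fell from 90.4 and 91.1 to 77.7 and 75.6 CPM (-0.24). In each of these genes the mutant libraries lay below both WT libraries. Lamc1, the laminin gamma chain that pairs with both alpha chains, was not called (-0.072, adjusted p 0.571), nor were Nid1 (-0.088), Hspg2 (-0.12) and Fn1 (0.028). Of 9 laminin receptors, 2 were lower, beside 4.44% of all genes. Of the 3 at 200 CPM or more 1 was lower, beside 18.0% of all genes at that level. Of the 3 others that reached 20 CPM 1 was lower, beside 7.87% of all genes at 20 CPM or more. Itga1 fell from 463 and 459 to 394 and 373 CPM (-0.26) and Bcam, a receptor of the alpha 5 chain, from 128 and 134 to 117 and 117 CPM (-0.17). Itga1 kept its call in all 16 other settings and Bcam in 12 of 16, losing it without the second WT library (adjusted p 0.0823) or the second mutant library (adjusted p 0.0630). The main laminin-binding integrin chains Itga6 (0.048) and Itgb1 (0.024) and dystroglycan, Dag1 (-0.11), were not called.

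**Figure D4:**
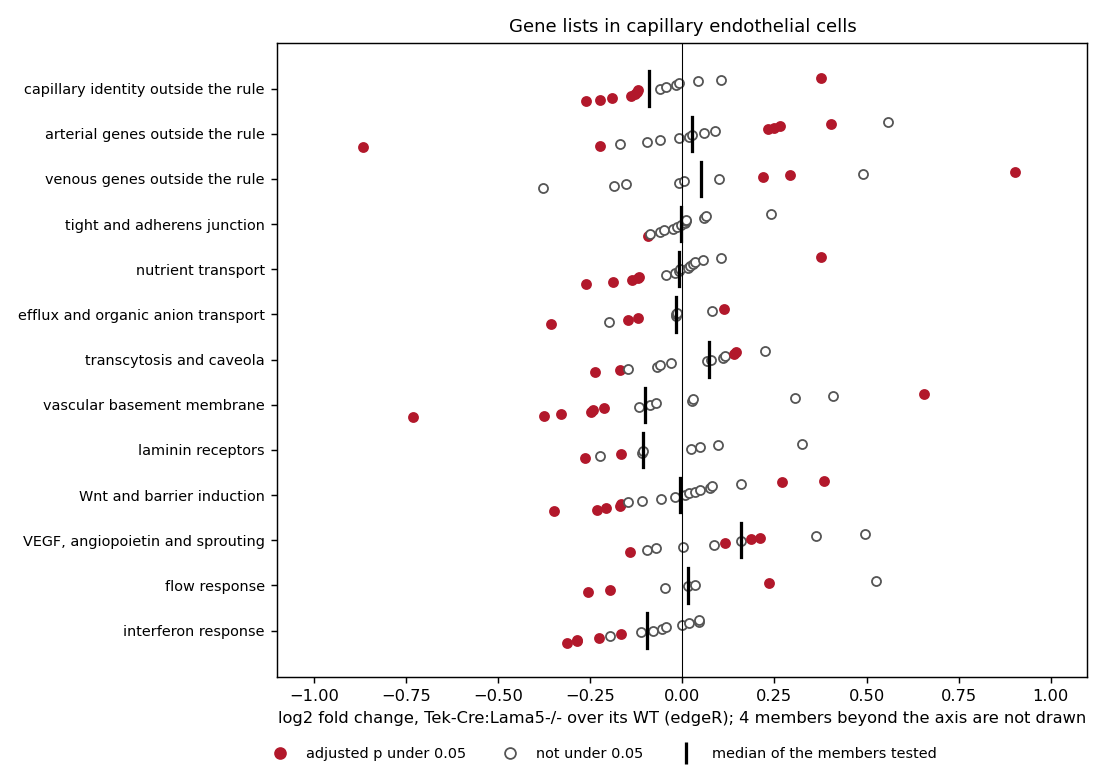
Log2 fold change of each tested member of 13 gene lists in capillary cells, Tek-Cre:Lama5-/- over its WT (horizontal axis); filled points had an adjusted p under 0.05, bars mark the list median and 4 members beyond the axis are not drawn. The capillary identity and basement membrane lists have medians of -0.09 and -0.10, and most filled points lie within 0.5 of 0.

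Of 18 Wnt and barrier induction genes, 5 were lower and 2 higher, with a list median of -0.0069. Of the 4 at 200 CPM or more, 2 were lower, beside 18.0% of all genes at that level. The other 14 lay between 20 and 200 CPM, and 3 were lower and 2 higher. Beside them, 17.2% of all genes at 20 CPM or more were called either way, a share that holds more abundant genes too. Fzd4, the receptor for Wnt7 and norrin signals, fell from 313 and 319 to 249 and 248 CPM (log2 fold change -0.35, adjusted p 8.63e-06), and Reck, its partner in sensing Wnt7, rose from 76.3 and 81.6 to 104 and 102 CPM (0.38, adjusted p 0.000164). Fzd6 (-0.23), Sox18 (-0.17) and Foxq1 (-0.17) were also lower and Sox7 (0.27) higher. The pathway targets Axin2 (83.4 and 87.7 CPM in WT and 85.9 and 89.1 in the mutant, 0.033) and Apcdd1 (0.16) and the nuclear effector Lef1 (0.08, adjusted p 0.119) were not called.

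Of 15 arterial genes outside the rule, 4 were higher and 2 lower, with a list median of 0.025, beside 9.38% higher and 7.87% lower among all genes at 20 CPM or more, a level that 13 of the 15 reached. Alpl rose from 56.6 and 52.7 to 70.8 and 73.9 CPM (0.40, adjusted p 0.000307). The Notch ligand Dll4 rose from 82.1 and 85.7 to 102 and 99.9 CPM (0.27), Edn1, which encodes endothelin, from 297 and 278 to 347 and 336 CPM (0.25) and Efnb2 from 60.2 and 63.2 to 73.5 and 71.5 CPM (0.23). Notch4 was lower (-0.22), a call kept in 8 of 16 other settings and lost without the second WT library or either mutant library, and so was Clu (-0.87), which astrocytes express strongly. The Notch target Hey1 (0.017) and the receptor Notch1 (-0.06) were not called. Of 10 venous genes, 3 were higher and none lower, beside 5.62% higher over all genes. Of the 6 between 20 and 200 CPM, 2 were higher, beside 9.38% of all genes at 20 CPM or more. Among the 3 were Icam1 (93.9 and 101 to 115 and 111 CPM, 0.22) and Ptgs2 (0.90, at 5.86 CPM or less). The count changed without the second WT library. The number of the rule's own venous genes seen per capillary cell differed between the groups as well, so the next shares rest on genes the rule used. Cells with 2 venous genes made up 26.7% and 26.5% in WT and 19.0% and 18.3% in the mutant, whose cells were shallower. With the rule redrawn on thinned cells, cells with only 2 venous genes were 566 of 3697 and 595 of 3679 in WT. They were 390 of 3039 and 385 of 2832 in the mutant, a lower share in both mutant libraries than in either WT library. The lower share was thus also present at equal depth. In thinned capillary cells, Slc38a5 was detected in 21.9% and 22.2% in WT and 16.0% and 17.2% in the mutant. Tmem252 was detected in 47.9% and 47.8% and then 42.3% and 40.3%, while Vwf rose from 5.40% and 6.32% to 6.75% and 7.60%. Venous cells made up 4.87% and 4.86% of thinned endothelial cells in WT and 6.32% and 5.81% in the mutant. Whether the make-up of the cells or only the levels of these genes differed was not tested. The part of these kinds of cells in the calls was not tested beyond the fit in cells with no zone gene, which called 260 genes, of which 228 were among the 1283.

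Of 13 VEGF, angiopoietin and sprouting genes, 5 were higher and 1 lower, with a list median of 0.16, beside 5.62% higher and 4.44% lower over all genes and 9.38% higher at 20 CPM or more, a level that 9 of the 13 reached. The VEGF receptor Kdr rose from 463 and 469.7 to 499 and 511 CPM (0.12), its co-receptor Nrp1 from 184 and 188 to 213 and 211 CPM (0.19) and the semaphorin receptor Plxnd1 from 66.6 and 66.6 to 78.9 and 75.2 CPM (0.21). The count of 5 was 2 without the second mutant library and with DESeq2, and none of 10 tested was called in cells with no zone gene. Esm1 and Pgf were also called at 3.03 CPM or less, and Tie1 was lower (-0.14). Esm1 stood at 0.0756 and 0 CPM in WT and 0.974 and 1.72 CPM in the mutant, and Pgf at 0.756 and 0.781 and then 1.75 and 3.03 CPM. Both passed the filter on low counts only through the mutant libraries, so their calls do not bear on the list. Over the 7 libraries, 192 Esm1 UMIs lay in the Plvap cells described below and 11 in the other capillary cells. Of 7 flow response genes, 2 were lower and 1 higher, beside 17.2% called among all genes at 20 CPM or more, which 6 of the 7 reached. Klf2, a transcription factor induced by shear, fell from 3984 and 4062 to 3358 and 3378 CPM (-0.26, adjusted p 4.15e-06), and Thbd, which encodes thrombomodulin, fell (-0.20). Adm rose (0.24), a call kept in 11 of 16 other settings and lost without the first WT or the first mutant library, while Klf4 (0.034) and Nos3 (-0.048) were not called. Of 14 interferon response genes, 5 were lower and none higher, beside 7.87% lower among all genes at 20 CPM or more, which 13 of the 14 reached. They were Ifit3 (-0.31), Usp18 (-0.29), Rsad2 (139.9 and 147 to 114 and 122 CPM, -0.29), Irf7 (-0.23) and Ifit1 (-0.17). These 5 were 3 without the first WT or the first mutant library and 1 with DESeq2. Of 14 immediate early and heat shock genes, which tissue digestion can induce, Fosb (0.25), Ier3 (0.25), Egr1 (0.19) and Atf3 (0.15) were higher and Hspa1b, Hspa1a (-0.20) and Jund (-0.15) lower, and 6 were lower without the first WT library. All 14 of these genes reached 200 CPM, and the 7 called are near the 48.4% of all genes at that level. Of 8 cell division genes, Top2a and Pclaf were higher, beside 5.62% of all genes, at 20.01 CPM or less, but none was called without the second mutant library.

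A handful of cells carried nearly all of the signal of Plvap, the diaphragm protein of fenestrated capillaries that barrier endothelium lacks. Plvap stood at 0.227 and 0.156 CPM in WT and 10.7 and 10.01 CPM in Tek-Cre:Lama5-/- capillary cells (log2 fold change 5.68, adjusted p 3.58e-07), and at 27.7 and 0.16 CPM in the WT of the Lama4 experiment and 38.6 CPM in Lama4-/-. Of 659 Plvap UMIs, 645 lay in 26 cells with at least 2 each. These were 4 and 0 cells in the WT of the Lama4 experiment, 9 in Lama4-/-, 0 and 0 in the WT of the Lama5 experiment, and 7 and 6 in Tek-Cre:Lama5-/-. The shares in the mutant of the Lama5 experiment were 0.198% (exact 95% interval 0.0798% to 0.408%) and 0.164% (0.0603% to 0.357%) of capillary cells, and the upper bounds in its WT were 0.0999% and 0.0987%. Microglia had a UMI of Plvap in 0.151% to 0.661% of cells, so single UMIs were left aside. Choroid plexus and ependymal markers also differed between these libraries. In capillary cells they summed to 133 and 118 CPM in the WT of the Lama5 experiment and 239 and 226 CPM in Tek-Cre:Lama5-/-. In the Lama4 experiment they summed to 271 and 222 CPM in WT and 1687 CPM in Lama4-/-. Whether the cells with Plvap came from other tissue in the suspension or from the genotype was not tested.

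Of the 5 capillary and barrier markers above, 4 were detected in few of the 26 cells and Car4 in most. Car4 had a UMI in 65.4% of them against 70.6% of the 18447 capillary cells with no Plvap UMI, with 278 against 769 CPM in the other capillary cells. Cldn5 was detected in 19.2% of them against 99.7%, Spock2 in 3.85% against 95.4% and Slco1a4 in 19.2% against 95.5%. Mfsd2a was detected in 0 of 26 against 50.3%. The floor here was set at 3 cells of 26, or 11.5%, and is not an exact interval like those above. Median depths were 5207 and 2942 UMIs. Slc2a1 stood at 61.8 CPM against 2909 in the other capillary cells, and Abcb1a at 77.2 against 1257 CPM. They were high in Igfbp3, at 3577 against 16.05 CPM, in Kdr, at 3052 against 505, in the lipid phosphatase gene Plpp3, at 3845 against 42.3, and in Nrp1, at 2013 against 227. The endothelial gene Flt1 stood at 5760 against 4802 CPM, and the choroid plexus transcript Ttr at 396 against 216 CPM. These cells were singled out after their values were seen and by Plvap itself, so the profile is a description. By Cldn5, Mfsd2a, Spock2 and Slco1a4 they go against the capillary label, and by Car4 they go with it. Without all cells that had a UMI of Plvap or Esm1, 1299 genes were called, of which 1225 were among the 1283, and 4 of 12 VEGF and sprouting genes tested were higher.

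Markers of other cells moved with the genotype in the same capillary cells. Of 9 tested microglial and macrophage markers, 5 were higher, beside 5.62% of all genes, among them Tmem119, Cx3cr1 and Csf1r, with P2ry12 from 10.6 and 12.03 to 17.5 and 17.4 CPM, and the list summed to 1512 to 1548 CPM in all 4 libraries, most of it Cst3. Of 8 astrocyte markers 5 were lower, beside 4.44% of all genes, with Aqp4 from 8.84 and 14.4 to 3.505 and 5.76 CPM and a summed level of 419 to 451 CPM in WT and 312 to 356 in the mutant. No oligodendrocyte marker of 8 was called (5 to 8 were lower without the second WT library or either mutant library), and their sum was 3654 CPM in the first WT library and 2436 to 2524 in the other 3. The choroid plexus transcript Ttr stood at 0.68 and 0.234 CPM in WT and 113 and 98.9 CPM in the mutant. No mural marker of 10 and no red blood cell gene of 5 was called (4 of the latter were higher without the second WT or the first mutant library), and the mural sum was 23.2 to 26.6 CPM. The Y-linked genes Ddx3y (108 and 103 to 76.4 and 79.9 CPM, -0.43), Eif2s3y (-0.46) and Kdm5d (-0.57) were lower in the mutant, and Xist was at 0.227 CPM or less in all 7 libraries. The part of other cells' RNA in the calls was not tested, except that leaving out the 3.48% of cells with high oligodendrocyte, astrocyte or neuron markers gave 1658 calls, of which 1227 were among the 1283.

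Few genes passed a test of whether the effect of Lama5 loss differed between capillary cells and another zone. With capillary and venous sums of the 4 libraries in 1 model, 7 of 12417 genes (0.0564%) had a zone term at an adjusted p under 0.05, of which 4 (0.0322%) had the higher effect in capillary cells, against 819 at an unadjusted p under 0.05. With arterial sums, 11 of 12731 (0.0864%) did, 8 of them (0.0628%) with the higher effect in capillary cells, against 752. Without 1 library, the 7 terms were 13 to 44 and the 11 were 12 to 95, the most without the first WT library for venous cells and without the second mutant library for arterial cells. Of the 7, 3 are genes of RNA quality (Gm42418, AY036118 and Neat1), and 5 of the 8 arterial terms with the higher effect in capillary cells are haemoglobin genes (Hbb-bt, Hbb-bs, Hba-a1 and Hba-a2) or AY036118. Cxcl12 had plain levels of 2132 and 2064 CPM in WT and 1925 and 1871 CPM in mutant capillary cells, and fell from 454 and 479 to 319 and 297 CPM in venous cells (term 0.47, adjusted p 0.000175). Cp, which encodes the ferroxidase ceruloplasmin, and Fth1, the ferritin heavy chain, were near level in capillary cells and higher in mutant venous cells: Cp went from 140 and 137 to 198 and 202 CPM there (term -0.47), and Fth1 from 2865 and 2594 to 3747 and 3772 CPM (term -0.39). Mt1, a metallothionein, rose less in capillary cells, from 752 and 750.0 to 873 and 840.2 CPM, than in arterial cells, from 292 and 299 to 484 and 456 CPM (term -0.47, adjusted p 0.000195). Igfbp3 rose in capillary cells and stood at 299.6 and 288 CPM in WT and 297 and 329 CPM in mutant arterial cells (term 0.91). That term fell to 0.38 (adjusted p 0.353) without the cells that had a UMI of Plvap or Esm1. The Cxcl12 term fell to 0.25 (adjusted p 0.463) when each cell was thinned to 2000 UMIs before the zones were drawn.

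In Lama4-/- capillary cells, 51 of 6377 genes (0.800%) at 20 CPM or more, taken as the mean of the WT and the mutant level, lay at least 0.5 from both WT libraries on the log2 scale with 0.5 CPM added, 21 higher (0.329%) and 30 lower (0.470%). Against only the second or only the first WT library, 96 or 151 genes passed. Of the 21, 7 had a WT level under 20 CPM and of the 30, 8 had a mutant level under it, so these passed the limit only through the group where they were higher. There was 1 mutant library, so these are values without a test or an error between mutant libraries. The median log2 ratio of these genes was 0.048, and 0.020 between the WT libraries. Egr3, an immediate early transcription factor and one of these, stood at 9.77 and 9.27 CPM in WT and 36.3 CPM in Lama4-/- (log2 ratio 1.88), and Egr1 at 88.3 and 62.8 CPM in WT and 163 CPM in the mutant (1.10). The homeobox genes Hlx and Hhex stood at 13.99 and 16.8 against 32.4 CPM and at 46.1 and 51.3 against 75.7 CPM, and Hlx too was under 20 CPM in WT. Hhex was also higher in Tek-Cre:Lama5-/- (log2 fold change 0.38, adjusted p 0.00289). The p53 target Pmaip1 (46.6 and 56.7 against 89.8 CPM) and the cold-inducible RNA-binding protein gene Cirbp (45.3 and 49.5 against 72.95 CPM) were also among the 10 highest.

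Among the 10 lowest, after Lama4, were Zbtb16 (-1.10) and the heat shock gene Hspa1a, at 2328 and 2369 CPM in WT and 1395 CPM in Lama4-/- (-0.75). Hspa1a was also lower in Tek-Cre:Lama5-/- (-0.20, adjusted p 0.000199). Of 4 ribosomal or mitochondrial transcripts among them, 3 also differed between the WT libraries: Rps28 stood at 378 and 261 CPM in WT and 168 CPM in Lama4-/-, Rpl38 at 2011 and 1606 CPM in WT and 1119 CPM in the mutant, and mt-Nd3 at 618 and 462 CPM in WT and 281 CPM in the mutant. The fourth, mt-Nd4l, was near level between the WT libraries, at 223 and 219 CPM, and stood at 137 CPM in Lama4-/- (-0.69).

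No gene of the capillary identity (14), junction (11), nutrient transport (14), efflux (9), transcytosis (13), Wnt (18) or VEGF (9) lists that reached 20 CPM passed the fold in Lama4-/-, beside 0.800% of all genes. Of 12 basement membrane genes, Lama4 alone passed it. Sparc stood at 1796 and 1829 CPM in WT and 1782 CPM in Lama4-/-, and Col4a1 at 572 and 571 CPM in WT and 593 CPM in the mutant. Fzd4 stood at 256 and 268 CPM in WT and 270.2 CPM in the mutant. Klf2, which fell in Tek-Cre:Lama5-/-, stood at 3604 and 3602 CPM in WT and 4639 CPM in Lama4-/-, a log2 ratio of 0.37 that did not pass the fold. Red blood cell genes were lower in 4 of 4, with a sum of 7077 and 6573 CPM in WT and 141 CPM in Lama4-/-. Choroid plexus markers were higher in 2 of 2, with a sum of 271 and 222 CPM in WT and 1687 CPM in Lama4-/-, and the fibroblast gene Dcn stood at 0.146 and 0.799 against 31.3 CPM. Their part in the other values was not tested.

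**Figure D5:**
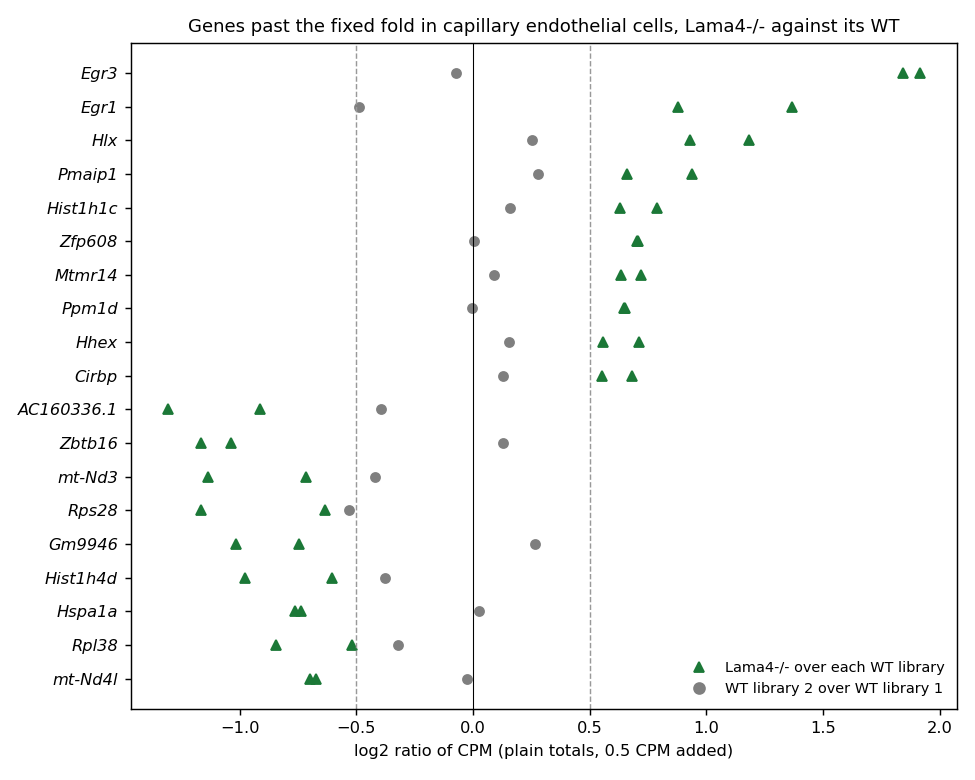
Log2 ratio of CPM, with 0.5 CPM added, for the genes named by size in the Lama4 experiment except Lama4; triangles give the Lama4-/- library over each of the 2 WT libraries, circles 1 WT library over the other, and dashed lines the fold of 0.5. Egr3 lies furthest to the right, and for Rps28 the WT libraries themselves differ by -0.53.

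Capillary cells made up 68.0% and 68.6% of endothelial cells in the WT of the Lama5 experiment (mean 68.3%, SD 0.447, n = 2) and 70.1% and 71.1% in Tek-Cre:Lama5-/- (mean 70.6%, SD 0.709, n = 2), a difference of 2.26 percentage points. The exact two-sided permutation test gave p = 0.333, the smallest that 2 libraries against 2 can give. With cells thinned to 2000 UMIs before the rule, the difference was -2.28, so the direction changed with how depth was treated. With stricter limits on genes and mitochondrial share, which were changed together, it was -1.0. The share was 51.9% and 52.7% in the WT of the Lama4 experiment and 57.1% (exact 95% interval 55.1% to 59.1%) in Lama4-/-, a difference of 4.80 points that was 1.13 after thinning. Dissociated tissue gives shares of recovered cells, and fewer capillary cells in the cortex cannot be told apart from fewer recovered.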

How the data were processed

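The deposited values are counts: per the file headers, whole UMI counts per gene and cell from Cell Ranger (version 3.1.0 in the matrix header), with no normalization. Per the submitters' processing notes, the authors used build mm10 and Seurat 3.1. Of 31053 gene IDs, 31011 (99.9%) are in GENCODE M21, which gave coordinates. The members and gene lists were chosen with earlier results of these data known.

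Counts of capillary cells were summed per library, 6259729 to 12840590 UMIs each, and the 2 Tek-Cre:Lama5-/- libraries were compared with their 2 WT libraries by edgeR 4.0.16 (filterByExpr, TMM, quasi-likelihood F test, Benjamini-Hochberg adjustment) in R 4.3.3, tested on simulated data. Zone terms added venous or arterial sums, which share libraries with the capillary sums. DESeq2 1.42.0, other filters, other cells, left-out libraries and the replicate number as a block were alternatives. Leaving out cells with Plvap or Esm1 was chosen after seeing the data, as were zone terms on thinned cells and shares without cells holding other cells' markers. Genes named in the Lama5 comparison were the 12 largest increases and 12 largest decreases among calls at 20 CPM or more whose groups did not overlap. They left out genes of the cell rule, other cells' markers, sex-linked and RNA quality genes, and genes over 10 times higher in the other cells. The Lama4 comparison named 10 each way by log2 ratio under the same exclusions, zone terms up to 5 of each sign, and zone levels 10 of each sign. List members could be named with their values. Genes that share reads with near copies, such as Rpl9-ps6, are uncertain. Some genes that the rule or the lists name are not reported here. No doublet caller was run. Intervals cover counting error only. Python 3.11.15 with scipy 1.17.1 drew the rule and the shares.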

Additional observations from a re-analysis of the deposited data

Results flagged for a closer look

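The effect of Lama5 loss in capillary cells differed from that in another zone for 8 genes outside the rule, the other-cell lists and the genes over 10 times higher in other cells, by the zone term of edgeR's quasi-likelihood test. Against venous cells the log2 terms were 0.47 for Cxcl12, 0.40 for the noncoding RNA Gm26532, -0.47 for Cp and -0.39 for Fth1. With zones drawn on thinned cells the Cxcl12 term was 0.25 (adjusted p 0.463). Gm26532 had plain levels of 178 and 185 CPM in WT and 158 and 161 CPM in mutant capillary cells, and 193 and 199.9 CPM in WT and 134 and 129.7 CPM in mutant venous cells. Its term had an adjusted p of 0.0225 and of 0.0782 or 0.0793 without either mutant library. Against arterial cells the terms were 0.91 for Igfbp3, 1.36 for Nov, 0.54 for Ccnd1 and -0.47 for Mt1. Without the cells that had a UMI of Plvap or Esm1 the Igfbp3 term was 0.38 (adjusted p 0.353). Nov, a matricellular protein gene, had 8.88 and 5.86 CPM in WT and 9.49 and 16.4 CPM in mutant capillary cells, and 98.3 and 76.9 CPM in WT and 56.6 and 62.7 CPM in mutant arterial cells. Its term was 0.82 (adjusted p 0.142) with zones drawn on thinned cells. Ccnd1, which encodes cyclin D1, had 39.3 and 35.8 CPM in WT and 49.0 and 43.0 CPM in mutant capillary cells, and 206 and 174 CPM in WT and 159 and 165 CPM in mutant arterial cells. Its term had an adjusted p of 0.0932 without the first WT library and 0.147 without the first mutant library. The last limit left out Clu, with an arterial term of -1.08 (adjusted p 0.000645), and Snhg11, with -4.31 (adjusted p 0.0170) at 4.44 CPM or less in capillary cells. The sums of the zones compared come from the same libraries.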

How the results depend on the processing

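The 1283 calls of the Lama5 comparison were 820 with no filter on low counts (19876 genes tested), 260 in cells with no zone gene (fewer cells), 486 with DESeq2, which gave an adjusted p for 5835 genes, and 1053 to 1636 without 1 library; a lone library was then assumed to vary like the other group. The 7 venous zone terms were 70 with no filter, 18 with stricter cell limits, 17 without cells with other-cell markers, 13 with zones on thinned cells and 13 to 44 without 1 library. The 11 arterial terms were 80 with no filter, 25 without cells with other-cell markers and 12 to 95 without 1 library; the highest count left out the second Tek-Cre:Lama5-/- library, and 49 came without the first WT library. The cause was not tested.

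The difference in capillary share of the Lama5 experiment was -2.28 points on thinned cells, -1.0 with stricter cell limits and 1.76 to 2.76 without 1 library, and that of the Lama4 experiment 1.13 on thinned cells. The 51 genes past the fold in Lama4-/- were 178 at a mean of 5 CPM or more and 96 to 151 without 1 WT library. Ifit1 turned to 0.10 (adjusted p 0.747) in cells with no zone gene. The other values of named and listed genes were pooled with the counts of higher and of lower genes. Of these, 1739 were kept, 199 gene values kept direction but missed the threshold and 36 counts moved by over 1.5 times. Kept means the same direction and side of the threshold, or of the fold in Lama4-/-, for a gene. For a count it means within 1.5 times of the main count.

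Same-numbered libraries did not deviate together (correlation -0.0012 over 5719 genes, across genes, 2 pairs). With only 2 libraries in each group, this cannot settle whether the numbers pair the samples. With the replicate number as a block, 1436 genes were called, 1262 of them among the 1283. In the Lama4 comparison, which had no test, the capillary sums held 6259729 to 6860149 UMIs, below each sum of the Lama5 experiment. All groups are pools of 3 mice, and spread between mice was not measured.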

Other observations

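Genes known to respond to glucocorticoids moved in both directions in Tek-Cre:Lama5-/- capillary cells. Of 15 tested, on a list drawn up after these values were seen, 6 were lower and 5 higher, beside 4.44% lower and 5.62% higher over all genes. Of the 15, 6 reached 200 CPM, and 3 of these were higher and 3 lower, beside 48.4% of all genes at that level called either way. Another 5 reached 20 CPM, and 1 of these was higher and 2 lower, beside 17.2% of all genes at 20 CPM or more. Fkbp5, a chaperone of steroid receptors, fell from 18.97 and 18.7 to 11.4 and 11.6 CPM (log2 fold change -0.71, adjusted p 0.000792 by edgeR's quasi-likelihood test with Benjamini-Hochberg adjustment). Zbtb16 and Map3k6 (-0.41) were lower as well. Cdkn1a, a cell cycle inhibitor, fell from 1722 and 1730 to 1382 and 1403 CPM (-0.31), Klf9 from 574 and 580.01 to 507 and 490.5 CPM (-0.21) and Tsc22d3 from 607 and 649 to 545 and 562 CPM (-0.18). Sgk1, a kinase, rose from 743 and 701 to 924 and 894 CPM (0.33), and Errfi1 from 109 and 108 to 133 and 137 CPM (0.32). The metallothionein genes Mt1 (0.27) and Mt2 (0.20) rose, and the fifth, Lcn2, is a gene of the cell rule. In Lama4-/-, where Zbtb16 was lower as well, Map3k6 stood at 54.1 and 48.1 CPM in WT and 34.2 CPM in the mutant. Fkbp5 stood at 16.03 and 10.7 CPM in WT and 16.9 CPM in the mutant, and Cdkn1a at 1182 and 1202 CPM in WT and 1222 CPM in the mutant.

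Of 6 tested genes of ephrin signalling, a list also drawn up after the values were seen, 3 were higher in Tek-Cre:Lama5-/- (Epha2, Efna2 and Efnb2), beside 9.38% of all genes at 20 CPM or more, which all 6 reached, and Efnb1 was lower, from 70.3 and 69.97 to 55.8 and 52.96 CPM (-0.37, adjusted p 0.000431). Epha2 and Efna2 were known to have risen when the list was drawn up.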
